A study of Drosophila melanogaster with 33 samples.

Results

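The regions bound by RNA polymerase II were compared between 2 antibodies in Drosophila S2 cells, 1 against the polymerase subunit Rpb3 and 1 against the polymerase phosphorylated on Ser2 (Ser2P). On the 6 chromosomes kept (2L, 2R, 3L, 3R, 4 and X), 9314 Rpb3 peaks and 1670 Ser2P domains merged into 9493 separate regions. A region was put in a class by 1 bp of overlap. It held Rpb3 alone in 7842 cases, both marks in 1095 and Ser2P alone in 556. The 2 lists together hold 13679 peaks on all chromosomes and scaffolds, out of 94396 peaks in the 13 lists of the series.

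Rpb3 is a core subunit of RNA polymerase II, so an antibody against it recovers the enzyme whether or not its largest subunit is phosphorylated. That largest subunit ends in a long tail of repeated residues. Serine 2 of the repeat is phosphorylated as the polymerase moves into the gene body, by kinases such as P-TEFb and Cdk12, and the mark is commonly used for elongating polymerase. In fly cells many genes hold a polymerase that has stopped shortly after initiation, and there Rpb3 is found with little Ser2P. GAF and M1BP are DNA-binding proteins known from such promoters, and dRing and E(z) are the enzymatic subunits of the Polycomb repressive complexes PRC1 and PRC2.

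The series holds 33 samples in 18 groups, of which 6 samples are inputs. Each antibody has 2 replicates in each cell line, except the HA antibody in S2 cells, with 1 sample. The cells were S2-DRSC, a line derived from late fly embryos and labelled wild type, and S2-AbdA, the same line stably carrying HA-tagged AbdA, a Hox protein. The S2 cells described here were, like the S2-AbdA cells, grown with 10 µM copper sulphate over 24 h. Rpb3 and Ser2P were compared in S2-DRSC, each with a single deposited peak list for its 2 replicates. Whether the replicates are separate cultures is not in the labels. Because 1 list stands for both replicates, no spread between replicates could be measured and no test between conditions was made. The intervals below are exact 95% intervals that cover counting error only, and neighbouring regions are not independent of each other. Read depth is unknown, and the identity of the cells could not be checked against marker genes, since the lists name no genes. Coordinates are those of the lists, on build dm3.

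Regions with Rpb3 alone made up 82.6% of all regions (95% interval 81.8 to 83.4), regions with both marks 11.5% (10.9 to 12.2) and regions with Ser2P alone 5.86% (5.39 to 6.35). By length the order was the same but the steps were smaller, with 5.97 Mb, 2.42 Mb and 1.64 Mb covered. The share of regions with Rpb3 alone was nearly the same on every chromosome, from 81.4% on 2R to 83.3% on 3R. The share with Ser2P alone varied more, from 4.78% on 3R (3.94 to 5.74) to 7.46% on X (6.24 to 8.83). On the small chromosome 4 it was 9.57%, from 9 regions (4.47 to 17.4).

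Seen from the Rpb3 list, 15.8% of peaks carried Ser2P (1472 of 9314, 15.1 to 16.6). Seen from the Ser2P list, 66.7% of domains carried Rpb3 (1114 of 1670, 64.4 to 69.0). Most polymerase peaks thus had no called Ser2P, while most Ser2P domains had a polymerase peak. On X 42.1% of Ser2P domains lacked Rpb3 (36.4 to 48.0), against 28.5% on 3R (24.0 to 33.3), and the other large arms were between these. In regions with both marks the usual make-up was simple. Of the 1095 regions, 812 (74.2%) joined a single Rpb3 peak with a single Ser2P domain, and 199 (18.2%) joined 2 Rpb3 peaks under 1 Ser2P domain. Domains with more Rpb3 peaks were wider, from a median of 484 bp for the 837 domains with 1 peak to 3479 bp for the 52 domains with 3.

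Rpb3 peaks with Ser2P were the wider and higher-scoring Rpb3 peaks. Their median width was 921.5 bp (882 to 969, n = 1472), against 562.5 bp without Ser2P (553 to 571, n = 7842). Their median score, the authors' own value per peak with no unit given, was 92.8 (87.2 to 97.8) against 39.4 (37.7 to 40.8). When the Rpb3 peaks were put into 5 equal groups by score, Ser2P lay at 3.86% of the lowest group, at 9.07%, 15.2% and 20.8% of the groups between, and at 30.1% of the highest group (28.0 to 32.3). Even in that highest group 1302 of 1863 Rpb3 peaks had no Ser2P domain. By width the same share was 5.90% in the narrowest group and 32.0% in the widest.

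The highest-scoring Rpb3 peaks of each class are given here as examples. The highest-scoring Rpb3 peak, chr2L:3656558-3657145, scored 334 and carried Ser2P but none of the 4 factors. The next with Ser2P, chrX:16837186-16837981, scored 327 and overlapped an M1BP and a GAF peak. The highest-scoring Rpb3 peak without Ser2P, chrX:13105310-13105850, scored 319, overlapped an M1BP peak and was 98986 bp from the nearest Ser2P domain. The second without Ser2P, chrX:6224686-6225198, also scored 319, overlapped a GAF peak and was 4056 bp from Ser2P. All 4 peaks were 513 to 796 bp wide and all 4 had an Rpb3 peak in S2-AbdA cells. High-scoring Rpb3 peaks thus occurred with Ser2P and without it. The 4 were picked by score within their class, so their like scores do not describe the classes, whose medians differed.

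The Ser2P list behaved the other way round. Ser2P domains without Rpb3 were wider, with a median of 1144.5 bp (839 to 1841, n = 556) against 747 bp with Rpb3 (696 to 825, n = 1114). They also scored higher, at a median of 6.13 (5.57 to 6.74) against 3.89 (3.74 to 4.04). Across 5 equal groups of Ser2P score, from lowest to highest, Rpb3 lay at 79.9%, 78.1%, 72.5%, 66.8% and 36.2% of domains. The strongest Ser2P domains were thus the ones in which Rpb3 was least often called. The score difference was largest in wide domains and absent in the narrowest. Median scores without and with Rpb3 were 4.11 and 4.12 under 500 bp, 5.75 and 3.74 at 2 to 4 kb, and 34.0 and 5.02 at 4 kb and over. The quartiles of the domains without Rpb3 were 296 and 5267 bp, so this class held very narrow and very wide domains together.

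**Figure D1:**
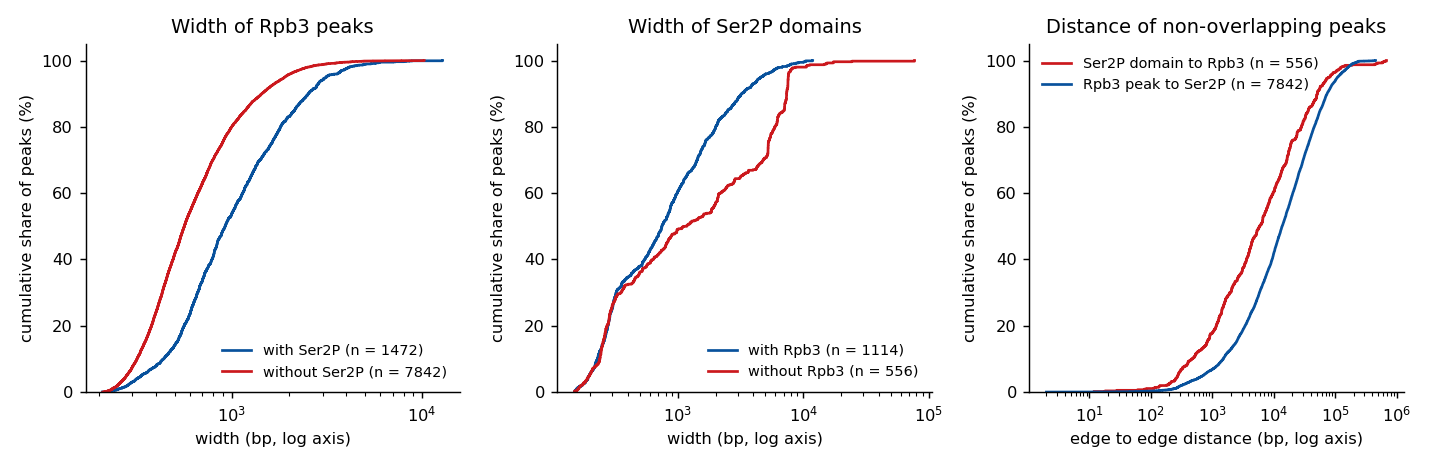
Cumulative share of peaks (%) by width (bp, log axis) for Rpb3 peaks with and without Ser2P and for Ser2P domains with and without Rpb3, and by distance to the nearest peak of the other mark (bp, log axis) for peaks that do not overlap it. The curve of Ser2P domains without Rpb3 climbs in steps beyond 4 kb, and their median distance to Rpb3 is 5867.5 bp.

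Most Ser2P domains without Rpb3 lay more than 1 kb from an Rpb3 peak. These distances were not set against those of randomly placed regions, so they do not show nearness or avoidance. Their median distance to the nearest Rpb3 peak, from edge to edge, was 5867.5 bp (4541 to 7295, n = 556), the quartiles were 1448.5 and 19086.5 bp, and the range was 12 to 686079 bp. Within 1 kb of Rpb3 lay 99 of the 556 (17.8%, 14.7 to 21.2), within 5 kb 262 (47.1%), and beyond 50 kb 60. Distance went with width. Domains under 4 kb had a median of 3567 bp and 24.9% of them lay within 1 kb, whereas for domains of 4 kb and over the median was 17174 bp and 3.28% lay within 1 kb. The narrowest domains, under 500 bp, were the closest, at a median of 2028 bp (1533 to 2633, n = 201), and 33.3% of them lay within 1 kb. In the other direction, Rpb3 peaks without Ser2P lay a median of 13726.5 bp from Ser2P (13103 to 14423, n = 7842), and 6.89% of them were within 1 kb.

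The 5 domains farthest from Rpb3 all lay at the end of 3L. The farthest, chr3L:24432378-24436561, was 686079 bp from Rpb3, scored 55.2 and overlapped 1 M1BP, 1 dRing and 1 E(z) peak. The next, chr3L:24381397-24386173, was 635098 bp away and overlapped all 4 factors. The distances of these 5 domains are not separate cases, because all 5 were measured to the same Rpb3 peak.

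Within Ser2P domains with a single Rpb3 peak, Rpb3 often filled narrow domains but seldom wide ones. Among the 812 single pairs, the Rpb3 peak covered the whole domain in 515 (63.4%). It did so in 50 of the 206 domains of 1 kb and over (24.3%), in 17 of 78 of 2 kb and over (21.8%) and in 0 of 20 of 4 kb and over. Where the Rpb3 centre was inside the domain (476 domains), its median distance from the nearer edge was 27.1% of the domain width (25 to 29.3), and centres spread evenly would give 25%. Of the 78 pairs with a domain of 2 kb and over, 70 had the centre inside, at a median of 25.5% (19.4 to 38.6). In the 20 pairs of 4 kb and over, 15 centres were inside, at a median of 13.0% (3.40 to 37.1). These intervals include the even position. The lists carry no strand, so which edge is upstream was not analysed here.

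The 4 factor lists of S2 cells were then laid over the 3 classes. E(z), the histone methyltransferase of PRC2, and dRing, the ubiquitin ligase of PRC1, were more frequent wherever Ser2P was present. An E(z) peak lay at 27% of all 9493 regions. It lay at 19.7% of regions with Rpb3 alone (1545 of 7842, 18.8 to 20.6), at 59.1% of those with both (56.1 to 62.0) and at 66.5% of those with Ser2P alone (62.5 to 70.5). A dRing peak lay at 15.5% of all regions, and at 10.5% (9.86 to 11.2), 32.1% (29.4 to 35) and 52.5% (48.3 to 56.7) of the 3 classes in the same order. Both Polycomb proteins were thus least frequent with Rpb3 alone. Between the classes with Ser2P the order rested on wide domains. With Ser2P domains of 4 kb and over left out, E(z) lay at 50.9% with Ser2P alone (45.7 to 56.1) and 57.0% with both (53.9 to 60.1), and dRing at 32.7% (28.0 to 37.7) and 30.2% (27.4 to 33.1).

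GAF, the GAGA-binding protein that keeps promoters open, and M1BP, the zinc finger protein of the Motif 1 promoter element, differed less between the classes. A GAF peak lay at 33.4% of all regions, and at 29.8% of regions with Rpb3 alone (28.8 to 30.9), 49.6% with both (46.6 to 52.6) and 51.3% with Ser2P alone (47.0 to 55.5). An M1BP peak lay at 43.5% of all regions, and at 40.8% (39.7 to 41.9), 56.7% (53.7 to 59.7) and 56.1% (51.9 to 60.3). For both proteins the intervals of the classes with Ser2P overlapped each other and were above that of Rpb3 alone.

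Wider regions meet more peaks by their length, so the centres of factor peaks were also counted per 100 kb. On this scale M1BP had 40.5 centres per 100 kb in Rpb3 alone, 31.6 in both and 44.2 in Ser2P alone, against 4.75 over the arms. GAF had 27.9, 22.2 and 22.4, against 4.49. Per length the 2 promoter proteins were thus not denser with both marks than with Rpb3 alone, unlike their share of regions. E(z) had 25.1, 33.4 and 53.7 centres per 100 kb, against 3.58 over the arms, and dRing had 13.1, 18.6 and 44.9, against 2.54. The order of the classes stayed the same for E(z) and dRing on both scales. Domains of 4 kb and over held 80.1% of the bases of Ser2P alone. The densities in Ser2P alone thus mostly describe these wide domains, and densities without them were not counted.

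**Figure D2:**
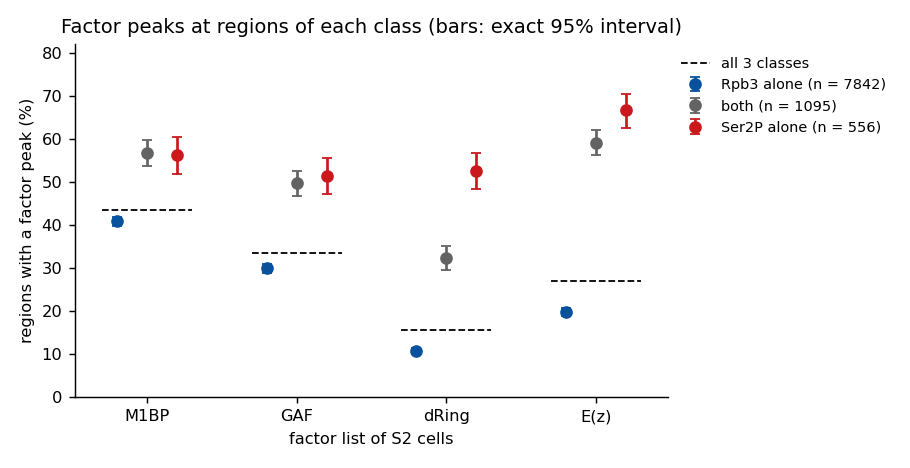
Share of regions (%) with an M1BP, GAF, dRing or E(z) peak for regions with Rpb3 alone, with both marks and with Ser2P alone, with exact 95% intervals and, dashed, the share over all 3 classes. The dRing share is 10.5%, 32.1% and 52.5% in the 3 classes, while the M1BP share is 56.7% and 56.1% in the classes with Ser2P.

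Factors also came in different combinations. No factor was called at 33.4% of regions with Rpb3 alone, at 11.3% with both and at 18.3% with Ser2P alone. Over all regions this was 2848 of 9493. All 4 were called at 1.57%, 10.8% and 32.2%, against 4.42% of all regions. The pair of dRing and E(z), with or without others, was present at 7.10%, 28.6% and 49.6%, against 12.1% of all regions. These shares take no account of region width, whose median was 562.5, 1626 and 1144.5 bp in the 3 classes.

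Seen from the factor lists, peaks that met a region with Ser2P alone made up more of the bases of the Polycomb lists than of the promoter protein lists. Each peak was counted by its whole width, also where only a part lay in the region, and in each class it met. E(z) peaks that met a region with Ser2P alone held 43.6% of the bases under all E(z) peaks, and for dRing this was 40.7%. The same shares were 19.6% for M1BP and 9.86% for GAF. M1BP was the factor with the largest part of its peaks in regions with Rpb3 alone, at 51.9% of 5719 (50.6 to 53.2). GAF was outside all polymerase regions in 43.5% of its 5407 peaks (42.1 to 44.8).

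Because Rpb3 peaks with Ser2P were wider and scored higher, the factors were compared within groups of like score. E(z) was more frequent at Rpb3 peaks with Ser2P in 5 of 5 score groups. The difference was smallest in the second-lowest group, with 21.3% against 16.3%, and largest in the highest group, with 63.8% (59.7 to 67.8, n = 561) against 30.8% (28.3 to 33.4, n = 1302). dRing was also more frequent in 5 of 5, from 12.4% against 10.1% in the second-lowest group to 34.0% against 12.7% in the highest. In the 2 lowest score groups the intervals of the Rpb3 peaks with and without Ser2P overlapped for both proteins. Within 5 groups of Rpb3 width, E(z) and dRing were again more frequent with Ser2P in 5 of 5.

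M1BP and GAF did not keep 1 direction. Over all Rpb3 peaks M1BP was 5.70 percentage points more frequent with Ser2P, but within score groups it was more frequent in 1 of 5, and the mean difference was -1.52 points. Within width groups the mean difference was -0.0141 points. GAF was 10.4 points more frequent with Ser2P over all Rpb3 peaks, in 3 of 5 score groups, with a mean difference of 0.170 points. In the lowest score group GAF lay at 12.5% of Rpb3 peaks with Ser2P against 24.8% without, and in the fourth at the highest difference, 15.9 points, in the other direction.

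**Figure D3:**
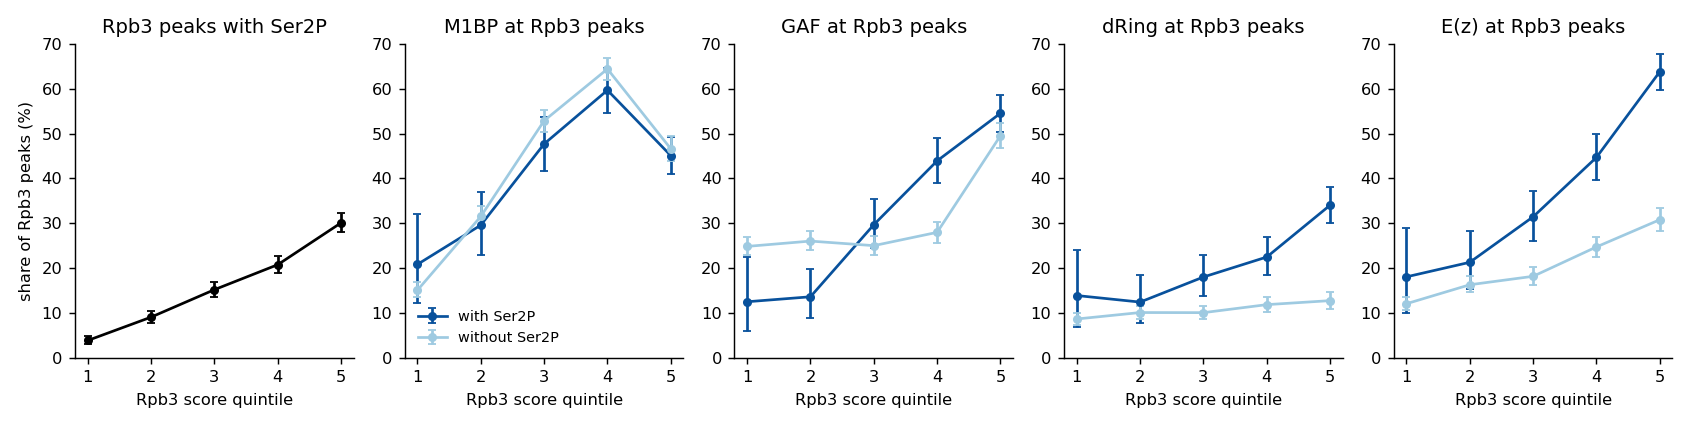
Share of Rpb3 peaks (%) with Ser2P, and share with an M1BP, GAF, dRing or E(z) peak for Rpb3 peaks with and without Ser2P, in 5 equal groups of Rpb3 score from low to high, with exact 95% intervals. E(z) is at 63.8% against 30.8% in the highest group, while the M1BP lines stay close.

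Turned around, the factor on an Rpb3 peak went with its share of Ser2P, against 15.8% of all Rpb3 peaks. Rpb3 peaks with E(z) had Ser2P in 30.2% (28.3 to 32.2, n = 2214), those without in 11.3%. With dRing it was 30.4% (27.7 to 33.1, n = 1186) against 13.7% without. With GAF it was 20.2% against 13.8%, and with M1BP 17.6% against 14.5%. Rpb3 peaks with M1BP as their one factor had Ser2P in 9.90% (8.68 to 11.2, n = 2191) and those with GAF alone in 9.53% (7.95 to 11.3, n = 1238), near the 11.7% of the 2971 peaks with no factor. E(z) alone went with 30.2% (24.4 to 36.5, n = 235), and all 4 factors together with 46.1% (39.5 to 52.8, n = 228). The median Rpb3 score of these sets differed as well, at 58.0 for M1BP alone, 44.9 for GAF alone, 22.4 for none, 77.5 for E(z) alone and 81.6 for all 4.

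Factor peaks in Ser2P domains with Rpb3 were set against the bases under Rpb3, which were 63.5% of the bases of these 1114 domains and 55.6% in the 227 of 2 kb and over. A peak has width and meets Rpb3 by 1 bp, so its share is above that of bases even with no preferred place, and no preference is read from it. Of the factor peaks in Ser2P domains with Rpb3, 91.2% of GAF (n = 590), 86.9% of M1BP (n = 732), 86.4% of E(z) (n = 756) and 81.1% of dRing (n = 435) overlapped an Rpb3 peak. In domains of 2 kb and over the shares were 79.4%, 73.5%, 69.8% and 61.1%. Factor centres were farther from the Rpb3 centre with Ser2P than without, where Rpb3 peaks were also wider. For dRing the median was 181 bp (142 to 232) against 95.8 bp (84.5 to 112), and for M1BP 356 bp (317 to 412) against 233 bp (222 to 242).

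Among the regions with Ser2P alone, wide and narrow domains differed in number, score and factors. Of the 1670 Ser2P domains 261 were 4 kb and over, and 183 of these (70.1%, 64.2 to 75.6) had no Rpb3, against 26.5% of the 1409 narrower ones (24.2 to 28.9). The 183 wide domains were 32.9% of the domains with Ser2P alone and 80.1% of their bases. Their median score was 34.0, against 5.02 for the 78 domains of 4 kb and over with Rpb3. The sets share this lower limit but not their widths. The 4 kb limit was chosen after the widths had been seen.

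The wide domains without Rpb3 also gathered at certain widths. In steps of 250 bp there were 17 and 19 domains between 5000 and 5500 bp, 14 between 6000 and 6250 bp, and 15, 21 and 29 between 7000 and 7750 bp. In the same steps there were 2, 5, 4, 0, 3 and 1 domains with Rpb3. Domains with Rpb3 thus numbered 5 or fewer at each of the widths where those without Rpb3 gathered.

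**Figure D4:**
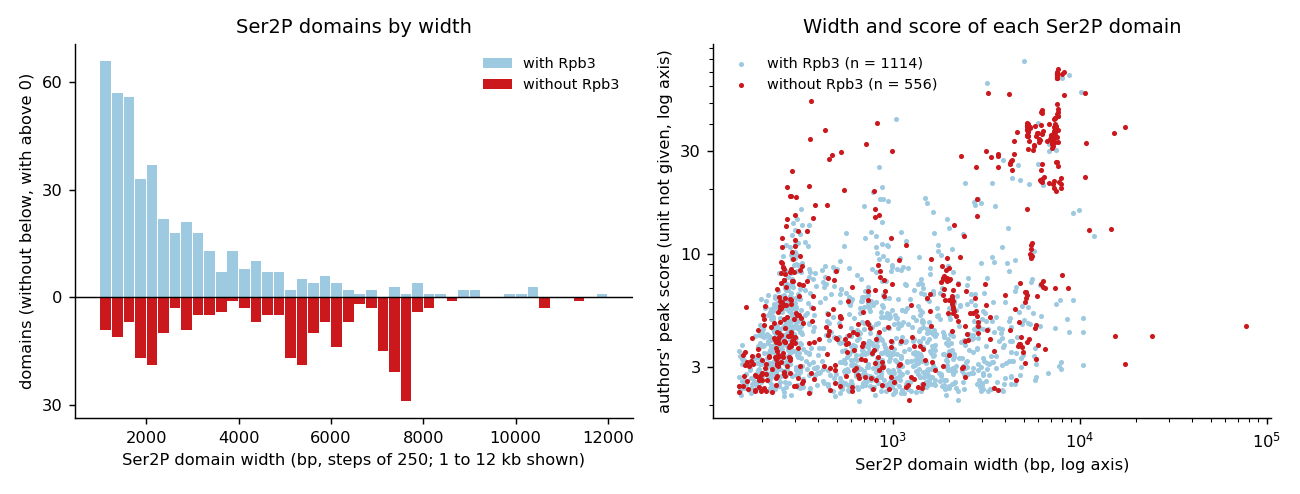
Number of Ser2P domains by width (steps of 250 bp, 1 to 12 kb), with Rpb3 above and without Rpb3 below 0, and the width and authors' score of each of the 1670 domains (log axes). Domains without Rpb3 gather between 5000 and 5500 bp and between 7000 and 7750 bp, at high scores.

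Factor shares depended on this split. Among domains of 4 kb and over, dRing lay at 92.9% of those without Rpb3 and 59.0% of those with it, and E(z) at 98.4% and 87.2%. M1BP lay at 86.9% and 82.1%, and GAF at 74.3% and 66.7%. Among all domains under 4 kb together M1BP lay at 41.0% of domains without Rpb3 and 50.2% with it, GAF at 39.9% and 46.2%, E(z) at 50.9% (45.7 to 56.1) and 52.9% (49.8 to 56.0), and dRing at 32.7% (28.0 to 37.7) and 28.5% (25.7 to 31.3). For E(z), GAF and dRing these intervals overlapped. Within the narrower domains the order also went with width. At 2 to 4 kb E(z) lay at 82.1% of domains without Rpb3 (69.6 to 91.1, n = 56) and 56.4% with it (48.0 to 64.5, n = 149), whereas under 500 bp it lay at 42.3% (35.4 to 49.4, n = 201) and 57.0% (52.1 to 61.7, n = 423). For dRing the shares were 55.4% and 38.3% at 2 to 4 kb, and 23.4% and 25.5% under 500 bp. At 500 to 1000 bp E(z) lay at 41.7% of domains without Rpb3 (30.2 to 53.9) and 48.4% with it (42.1 to 54.8). At 1000 to 2000 bp it lay at 65.9% (50.1 to 79.5) and 47.6% (40.8 to 54.6). In both of these bins the intervals overlapped. The lower E(z) share without Rpb3 was thus found in domains under 1000 bp, and the higher one in wider domains under and over 4 kb.

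The highest-scoring Ser2P domain of the whole list carried Rpb3. This domain, chr2R:2234171-2239179, scored 78.4 and was 5009 bp wide. The highest-scoring domain without Rpb3, chr3R:11444424-11452020, was 7597 bp wide, scored 72.1 and lay 39604 bp from Rpb3. The second, chr2L:10156300-10163847, was 7548 bp wide and scored 69.7, and the third, chr2L:21346912-21355103, was 8192 bp wide and scored 69.6. Each overlapped at least 2 peaks of M1BP, dRing and E(z). The 10 highest-scoring domains with Rpb3 ranged from 1038 to 10194 bp, while 8 of the 10 highest without Rpb3 were between 7500 and 7600 bp.

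Across the whole list 22 Ser2P domains fell between 7500 and 7600 bp, and none of the 22 overlapped Rpb3. They were 7506 to 7598 bp wide, lay on 5 chromosomes, had scores of 26.7 to 72.1 with a median of 66.9, and were 141 to 464587 bp from the nearest Rpb3 peak, with a median of 32639.5 bp. They made up 17 of the 20 highest-scoring domains without Rpb3. The range was chosen after the widths had been seen. M1BP, dRing and E(z) each had a peak in 22 of 22, and GAF in 15. Such counts were near those of all 168 domains of 4 to 8 kb without Rpb3, which include the 22. There M1BP lay at 88.1%, dRing at 92.9%, E(z) at 98.2% and GAF at 75.6%. At the median, E(z) peaks covered 93.3% of the domain in the 22, dRing 86.3%, M1BP 81.2% and GAF 24.7%. In the 168 domains the median coverage was 79.1%, 58.4%, 52.5% and 21.2% in the same order.

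The factor peaks inside most of these 22 domains followed a like layout. An M1BP peak edge lay within 100 bp of both domain edges in 18, a dRing edge in 19 and an E(z) edge in 20. In 4 to 8 kb domains without Rpb3 the shares with both edges matched were 37.5% for M1BP, 40.5% for dRing and 53.0% for E(z) (n = 168), and with Rpb3 they were 3.03%, 4.55% and 6.06% (n = 66). The layout also occurred mirrored. Over all 22 domains, a stretch free of M1BP, 650 to 900 bp from an edge, was found at the right edge alone in 14 domains, at the left edge alone in 4, at both in 2 and at neither in 2. The 17 highest-scoring domains had a like layout by eye, and the other 5 differed. The 4 are thus no count of mirrored layouts, since they include chr2L:8594443-8602040, which is among the 5. They also leave out chr3L:22610267-22617810, where M1BP peaks began as in chr2L:10156300-10163847 but both edges had the stretch. Coverage still varied among the 17, since M1BP covered 39.7% of chr3R:11444424-11452020 and 81.8% of chr2L:10156300-10163847, and dRing 27.9% and 91.4%. Whether these domains are copies of one sequence was not tested, since no dm3 genome or repeat annotation was used here.

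**Figure D5:**
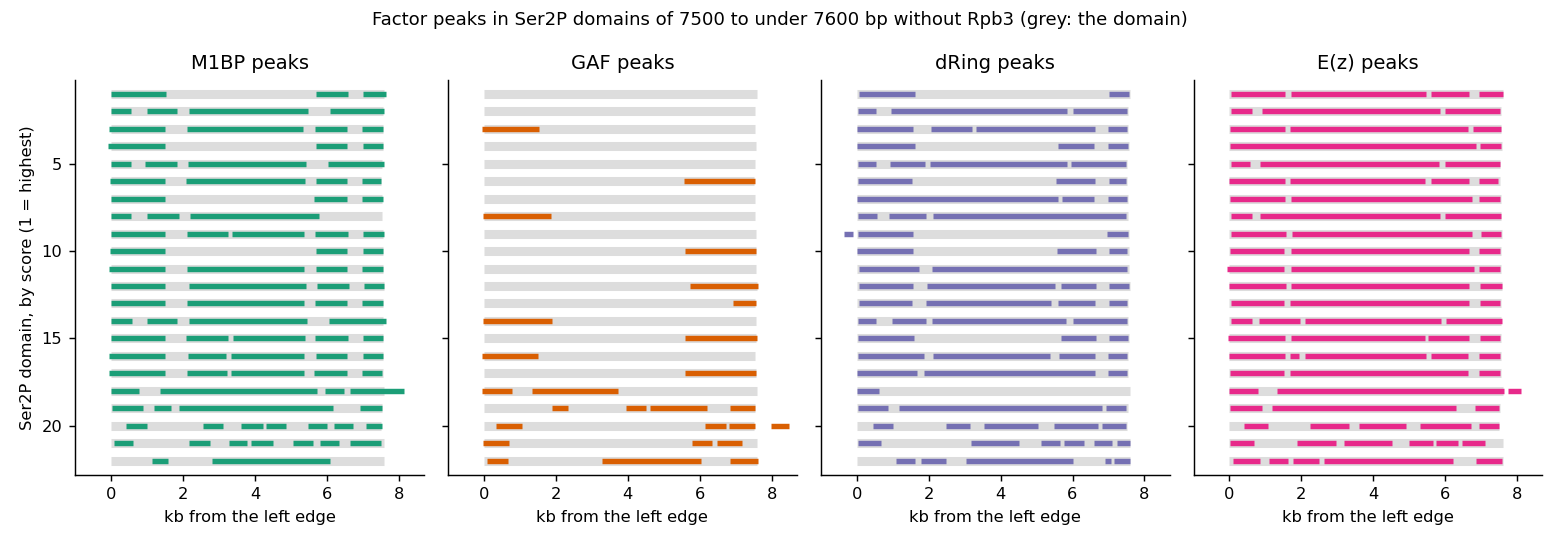
Factor peaks (coloured) along each of the 22 Ser2P domains of 7500 to 7600 bp (grey), in kb from the left edge, ordered from the highest score at the top. The M1BP, dRing and E(z) peaks stop at like positions in most domains, some of them in mirrored order for M1BP, and no Rpb3 peak is present in any.

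The same regions were looked up in the S2-AbdA lists, which were made from other libraries. Rpb3 was called there at 76.9% of regions with Rpb3 alone (76.0 to 77.8), at 90.4% of those with both (88.5 to 92.1) and at 15.6% of those with Ser2P alone (12.7 to 18.9). Regions with Rpb3 alone were 82.6% of all regions, so 76.9% is near the Rpb3 share over all regions together. In the same class order, Ser2P was called in S2-AbdA at 29.4% (28.4 to 30.5), 97.8% (96.8 to 98.6) and 94.2% (92.0 to 96.0). The Ser2P share over all regions lies between that of Rpb3 alone and those of the other classes. The Rpb3 and Ser2P lists of S2-AbdA cover 5.36% and 6.73% of the arms. The classes with Ser2P in S2 cells thus had it again in nearly all regions. Regions with both marks kept both in 88.5%. Of the regions with Rpb3 alone in S2 cells, 23.2% had both in S2-AbdA, where the Ser2P list is longer (3629 domains on the 6 chromosomes against 1670).

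Lack of Rpb3 at the wide Ser2P domains recurred in the second line. Of the 183 domains of 4 kb and over without Rpb3, 2 (1.09%, 0.133 to 3.89) had an Rpb3 peak in S2-AbdA and 179 (97.8%) had Ser2P. Of the 373 narrower ones 85 (22.8%, 18.6 to 27.4) had Rpb3 there and 92.5% had Ser2P. AbdA expression and library cannot be told apart between the lines, so no change between them is read from these shares.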

How the data were processed

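ChIP-seq samples of S2-DRSC and S2-AbdA cells were used as the peak lists their authors deposited, 1 per antibody and line. Per the submitters' processing notes, the tools were BWA 0.7.12 and MACS2 and the build was dm3. The way in which 2 replicates became 1 list was not stated in the labels or notes. Each list holds positions and a score per peak; the score is the deposited value, its unit is not given, and it was used only within a list, to rank and group peaks and to give the medians of classes. Names in the Ser2P list mark its peaks as broad, per the file contents, so scores were not compared between the Rpb3 and Ser2P lists. Region widths, covered lengths and centres per 100 kb of the classes do rest on the widths of both lists. Of the 13 lists 8 were used: the 6 of S2 cells, and Rpb3 and Ser2P of S2-AbdA.

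Peaks on chromosomes M, U, Uextra and the Het scaffolds were left out, which removed 56 of 9370 Rpb3 and 2639 of 4309 Ser2P peaks. Peaks were intersected at 1 bp with Python 3.11.15, pandas 2.3.3, numpy 2.4.6 and scipy 1.17.1. Shares carry exact Clopper-Pearson 95% intervals, and medians carry intervals from binomial order statistics. The counting was tested on 20 simulated pairs of lists, in which 0 runs gave a wrong count or distance, and 14 overlap counts were compared with bedtools 2.31.1, of which 0 differed. The lists hold no read counts, so depth is unknown and neither signal within peaks nor replicate spread could be measured. Single regions were named by rank: the 5 highest-scoring of each kind with and without the other mark, the 5 widest and the 5 farthest Ser2P domains, with fewer given where the text is shorter. The group of 7500 bp to under 7600 bp was chosen after the widths had been seen. The classes, factor lists and comparisons were chosen with earlier results of these data known. Overlap rules, peak subsets, joined domains, fixed windows and groups of like score or width were tried as alternatives. The reference genome at hand is of another build, so no gene name or sequence was assigned.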

Additional observations from a re-analysis of the deposited data

Results flagged for a closer look

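On the chromosomes and scaffolds left out, the Ser2P list held 2639 domains against 56 Rpb3 peaks, and these domains stand outside every comparison above. Uextra held 2275 of them and U 273. Their median width was 691 bp and their median score 17.1, and 23 of them (0.872%, 95% interval 0.553 to 1.30) overlapped an Rpb3 peak. E(z) lay at 64.0%, dRing at 55.4%, M1BP at 42.2% and GAF at 37.2%. Unplaced sequence, repeats and mapping were not examined, and their part in this count was not tested.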

How the results depend on the processing

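Of 153 alternative values for 37 results, 68 stayed within their interval, or within 1.5 times for a count, 78 moved and 7 turned direction. Turns were scored only for differences in factor share, and the 7 concern M1BP, GAF and E(z). M1BP at Rpb3 peaks with minus without Ser2P went from 5.70 percentage points to -1.52 within score groups and -0.0141 within width groups. For Ser2P domains without minus with Rpb3, M1BP went from 3.69 to -3.10 within 3 groups of width and -9.17 without domains of 4 kb and over, GAF from 3.59 to -1.24 and -6.29, and E(z) from 11.3 to 3.16 and -1.96. The dRing difference there kept its direction, from 21.9 to 13.5 and 4.23. Those within width groups are means of unlike groups. For dRing the difference was above 0 in 2 of 3 groups, from -3.34 to 41.2 points. For E(z) it was above 0 in 1 of 3, from -17.2 to 30.5 points. At Rpb3 peaks, GAF went from 10.4 to 0.170 (score groups) and 5.46 (width groups), dRing from 13.9 to 9.49 (score groups) and E(z) from 25.7 to 15.5 and 22.2. The order between 2 widths or between the shares of 2 classes was not scored for turns, and some orders changed. Without domains of 4 kb and over, Ser2P widths without and with Rpb3 went from 1144.5 and 747 bp to 447 and 681 bp. In the window of 250 bp to each side, M1BP at both and at Rpb3 alone went from 56.7% and 40.8% to 35.3% and 36.5%. Leaving out wide domains and grouping by Rpb3 width were chosen after seeing the data.

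Without domains of 4 kb and over, 13.8% of Rpb3 peaks had Ser2P and 73.5% of domains had Rpb3. The median widths of domains with and without Rpb3 were then 681 and 447 bp, the median distance was 3567 bp, and M1BP, GAF, dRing and E(z) lay at 41.0%, 39.9%, 32.7% and 50.9% of regions with Ser2P alone. With the higher-scoring 50% of the Rpb3 and Ser2P lists, there were 4164, 415 and 419 regions with Rpb3 alone, both and Ser2P alone. Then 10.6% of Rpb3 peaks had Ser2P, 49.8% of domains had Rpb3, and Rpb3 widths were 1005 and 684 bp with and without Ser2P. Ser2P widths were 678 and 2274 bp with and without Rpb3, and the distance was 13242 bp. Factor shares in the order M1BP, GAF, dRing and E(z) were then 55.7%, 36.1%, 13.2% and 28.5% for Rpb3 alone, and 66.1%, 60.4%, 64.9% and 80.0% for Ser2P alone. For both marks GAF, dRing and E(z) were at 60.0%, 43.1% and 72.3%.

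With the higher-scoring 50% of each factor list, the shares in the same order were 24.9%, 18.7%, 3.63% and 7.56% for Rpb3 alone. They were 36.3%, 36.2%, 10.6% and 29.9% for both, and 27.9%, 33.1%, 37.9% and 48.9% for Ser2P alone. In a window of 250 bp to each side of the centre, M1BP, dRing and E(z) lay at 36.5%, 9.50% and 17.1% of Rpb3 alone. All 4 lay at 35.3%, 39.5%, 20.6% and 40.5% for both, and at 47.1%, 31.8%, 43.0% and 61.5% for Ser2P alone. Where the overlap had to span 50% of the shorter peak or more, 13.1% of Rpb3 peaks had Ser2P, 61.0% of domains had Rpb3, and M1BP lay at 36.9% of Rpb3 alone and 53.3% of both. Ser2P of S2-AbdA then lay at 26.0% and 95.7% of these classes.

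With all chromosomes and scaffolds, 3172 regions had Ser2P alone, 26.4% of domains had Rpb3, and M1BP and GAF lay at 44.4% and 39.6% of Ser2P alone. The median distance was then 1617372 bp, over domains with an Rpb3 peak on the same sequence, and it has no use where scaffolds are strung together as in Uextra. From centre to centre the distance was 7544 bp. With the higher-scoring 50% of the S2-AbdA lists, Rpb3 lay at 39.1%, 76.0% and 12.4% of Rpb3 alone, both and Ser2P alone, and Ser2P at 10.8%, 81.2% and 79.7%. Joining Ser2P peaks up to 1 or 3 kb apart moved none of its 16 values. No paired analysis was possible because 1 list stands for both replicates of each antibody, and leaving out a replicate was not run for the same reason. Depth is unknown, so a mark that was not called may be present below the callers' threshold.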

Other observations

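Among the widest Ser2P domains, 3 near each other on 2L held E(z) and no M1BP or GAF. The widest spanned 77254 bp at chr2L:21466340-21543593, had a score of 4.65, overlapped no Rpb3 peak in either line and lay 29749 bp from the nearest in S2 cells. It contained 25 E(z) peaks that covered 71.5% of it, 2278 bp wide at the median and spaced by a median of 2928.5 bp between centres. It also held 13 dRing peaks that covered 17.9%, and 0 M1BP and 0 GAF peaks. Some E(z) peaks began at near-even steps, such as 25.2, 30.2, 35.3, 40.4, 45.4 and 50.4 kb from the left edge. Peaks of dRing began at 25.2, 30.3, 35.3, 40.4, 45.4 and 50.4 kb. Other E(z) peaks lay between some of these starts, so the median spacing is shorter than the steps. What the steps reflect was not tested. In S2-AbdA the same stretch held 7 separate Ser2P domains. The second widest, chr2L:21416377-21440837, was 24461 bp wide with a score of 4.16, 10 E(z), 2 dRing, 0 M1BP and 0 GAF peaks. The fifth, chr2L:21450275-21465731, was 15457 bp wide with 4 E(z) and 0 peaks of the other factors. The third, chrX:21558311-21575748, was 17438 bp wide with a score of 38.8 and held 10 M1BP, 4 GAF, 9 dRing and 7 E(z) peaks. The fourth, chr2L:20442975-20460312, was 17338 bp wide with a score of 3.12. It held 1 M1BP, 0 GAF, 1 dRing and 2 E(z) peaks.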
